A study of Mus musculus with 12 samples.

Results

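The transcripts of the 5 NF-kB subunits (Nfkb1, Nfkb2, Rel, Rela and Relb), of the 3 classical IkB inhibitors (Nfkbia, Nfkbib and Nfkbie) and of 2 nuclear IkB proteins (Nfkbiz and Bcl3) were followed in mouse B cells exposed to an agonist of STING. These 10 genes were picked by name from the 54532 genes of the count table, and all 10 were among the 14473 genes with enough counts to be tested. B lymphocytes had been sorted from 3 Tmem173-/- mice and from 3 wild type mice and seeded in 96-well plates. Tmem173 encodes STING, the receptor of cyclic dinucleotides, and 3'3'-cGAMP is a cyclic dinucleotide of bacteria that binds it. The 4 groups of 3 libraries were Tmem173-/- cells with cGAMP for 12 hours, Tmem173-/- control cells, wild type cells with cGAMP for 12 hours and wild type control cells. The labels give neither the nature of the Tmem173 allele nor whether the controls received a vehicle.

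NF-kB is a family of dimers that bind kB sites in DNA. Rela, Rel and Relb carry transactivation domains, while Nfkb1 and Nfkb2 encode the precursors p105 and p100, which are processed to the DNA-binding subunits p50 and p52 and hold dimers in the cytoplasm as long as they are unprocessed. Classical IkB proteins mask the nuclear localisation signals of the dimers and are phosphorylated by the IKK complex and degraded when a receptor signals. The nuclear proteins IkB-zeta (Nfkbiz) and Bcl-3 bind p50 or p52 dimers at DNA and change which genes these activate. Several family genes are themselves NF-kB targets, Nfkbia being the textbook case, and in B cells Rel and the noncanonical Nfkb2 and Relb pair serve activation, survival and maturation.

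Libraries held 26490593 to 31417833 assigned counts and 18556 to 19727 detected genes. Summed normalised read counts (CPM, the count relative to the library total, scaled by TMM) of 7 B cell markers were 4908 to 5954 in Tmem173-/- cGAMP, 4979 to 5681 in Tmem173-/- control, 3359 to 4107 in wild type cGAMP and 4722 to 5711 in wild type control libraries. Tmem173 RNA averaged 92.7 ± 11.5 CPM in Tmem173-/- control and 95.3 ± 5.95 CPM in wild type control libraries (SD, n = 3 each), so it does not check the genotype labels of the controls. With cGAMP it averaged 93.3 ± 9.45 CPM in Tmem173-/- and 47.3 ± 2.37 CPM in wild type libraries (log2 fold change 0.98, adjusted p = 9.88e-07). The replicate 1 libraries of wild type stood apart in 7 T cell markers, whose sum was 17.8 CPM with cGAMP and 8.05 CPM in the control against at most 1.75 CPM in the other libraries. The same libraries reached 23.7 and 9.12 CPM over 6 neutrophil markers, against at most 1.77 CPM elsewhere. Summed markers of monocytes and macrophages were 6.48 to 14.4 CPM in wild type cGAMP and 30.7 to 42.5 CPM in wild type control libraries, a difference carried by Adgre1 (3.70 to 5.27 CPM with cGAMP, 23.1 to 38.0 CPM in controls), while Lyz2 was at 1.96 to 7.86 CPM with cGAMP and 0.601 to 6.30 CPM in controls. Those of dendritic cells were 36.5 to 44.8 CPM in wild type cGAMP and 15.0 to 20.1 CPM in wild type control libraries, carried by Flt3 (16.1 to 18.6 CPM with cGAMP, 6.23 to 9.76 CPM in controls) and Zbtb46 (19.6 to 25.0 CPM with cGAMP, 6.47 to 7.66 CPM in controls), while Xcr1 was at 0.178 to 0.364 CPM with cGAMP and 0.352 to 0.677 CPM in controls. The part of these cells in the results below was not tested, and in bulk RNA fewer cells of a type and less RNA per cell cannot be told apart.

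Promoter windows from RefSeq (GRCm38.p6), each running from 250 bases before to 50 bases after an annotated start site, were found for 7 of the 10 genes at 9 start sites. Nfkb1, Relb and Nfkbiz had none in the table. The consensus kB motif, searched on both strands, was present at 7 of the 9 start sites and in 5 of the 7 genes (Nfkb2, Rel, Nfkbia, Nfkbie and Bcl3), whereas 8.46% of all 32851 promoter windows held it. Nfkbib and Rela had no match. The Nfkbib window ends at 28766894, inside the gene, whose listed 5′ end is at 28767512, so that end was not searched. The same window covers 28766735, where Sirt2 starts on the opposite strand. Below are windows of Nfkb2 and Nfkbia, which rose in wild type cells and hold the motif. The window of Nfkbib, which rose, holds no match, and that of Rel, which did not pass the test, holds the motif. Capitals mark the letters of kB matches, on either strand, and each window is written 5′ to 3′ on the strand of its gene.
Nfkb2 first start site, chr19:46304487-46304786, plus strand: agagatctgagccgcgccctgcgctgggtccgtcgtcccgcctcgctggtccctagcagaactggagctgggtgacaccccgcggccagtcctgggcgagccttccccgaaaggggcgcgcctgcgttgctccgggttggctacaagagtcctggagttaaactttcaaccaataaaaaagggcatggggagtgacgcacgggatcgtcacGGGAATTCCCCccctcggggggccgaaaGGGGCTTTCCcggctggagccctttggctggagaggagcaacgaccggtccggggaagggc
Nfkbia, chr12:55492598-55492897, minus strand: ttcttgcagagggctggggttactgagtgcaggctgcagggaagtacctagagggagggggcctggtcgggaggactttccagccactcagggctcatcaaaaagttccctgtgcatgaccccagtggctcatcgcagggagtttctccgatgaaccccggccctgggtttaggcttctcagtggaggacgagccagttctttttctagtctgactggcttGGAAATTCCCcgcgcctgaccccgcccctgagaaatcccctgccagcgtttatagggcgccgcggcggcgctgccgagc
Nfkbib, chr7:28766595-28766894, minus strand: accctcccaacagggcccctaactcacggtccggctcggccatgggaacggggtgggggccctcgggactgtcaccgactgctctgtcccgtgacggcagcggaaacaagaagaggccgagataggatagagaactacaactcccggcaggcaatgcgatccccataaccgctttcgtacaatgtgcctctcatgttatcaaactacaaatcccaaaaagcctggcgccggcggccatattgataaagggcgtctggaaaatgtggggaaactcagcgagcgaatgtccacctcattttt
Rel, chr11:23770920-23771219, minus strand: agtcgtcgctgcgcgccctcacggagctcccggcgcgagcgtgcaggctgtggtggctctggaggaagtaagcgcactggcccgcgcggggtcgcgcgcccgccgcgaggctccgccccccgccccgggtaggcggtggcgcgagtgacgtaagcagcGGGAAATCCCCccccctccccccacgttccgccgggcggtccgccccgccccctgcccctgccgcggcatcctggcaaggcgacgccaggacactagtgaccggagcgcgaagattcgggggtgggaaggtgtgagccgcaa

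With -1 as the last base before the start site and 1 as the first base after it, the palindrome GGGAATTCCC of Nfkb2 began at -39. It overlaps a second match, GGGGAATTCC, on the opposite strand, and a separate GGGGCTTTCC began at -11. The other start sites of Nfkb2 lie in overlapping windows (chr19:46305445-46305744 and chr19:46305680-46305979) that share 1 copy of GGGACTTTCC, and the upstream one also holds GGGACATTCC on the opposite strand. The kB match of Nfkbia was GGGAATTTCC on the opposite strand with its first printed base at -29, that of Nfkbie was GGGGGATTCC at -106, and that of Bcl3 was GGGAAGTCCC at 3, inside the transcript. Rel had GGGAAATCCC at -92, overlapped by GGGGATTTCC on the opposite strand. Of the other motifs searched on both strands, the GAAANNGAA pair bound by interferon regulatory factors was present only in Nfkbia among the 7 genes (8.56% of all windows) and the STAT motif TTCNNNGAA only in Nfkb2 (8.30%). The GC box GGGCGG was present in 6 of the 7 genes, all but Nfkbib, against 35.7% of all windows, and TATAAA in 1 gene, Nfkbia, against 13.6%. That TATAAA match is on the opposite strand, with its first printed base at 20, inside the transcript. The windows of these genes were rich in G and C, at 56.3% to 75.0% against a median of 52.7%. A match describes letters only and shows no binding.

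In wild type cells, cGAMP was followed by higher Nfkbiz, Nfkbib, Nfkbie, Nfkb1, Nfkb2 and Nfkbia RNA and lower Rela RNA, while Rel, Relb and Bcl3 did not pass the test. Apart from Nfkbiz, which was 2.19-fold higher, the highest of the others was 1.36-fold, for Nfkbib. The 6 higher and 1 lower of 10 genes stand beside 22.4% higher and 25.4% lower among all 14473 genes (edgeR quasi-likelihood test, Benjamini-Hochberg adjusted p under 0.05 over all genes). Their median log2 fold change was 0.26, against a median of -0.00 over all genes. For all 7 genes that passed, the 3 wild type cGAMP libraries did not overlap the 3 wild type control libraries, as was so for 26% of all tested genes with higher and 28.4% with lower values after cGAMP. In Tmem173-/- cells, none of the 10 genes passed.

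**Figure D1:**
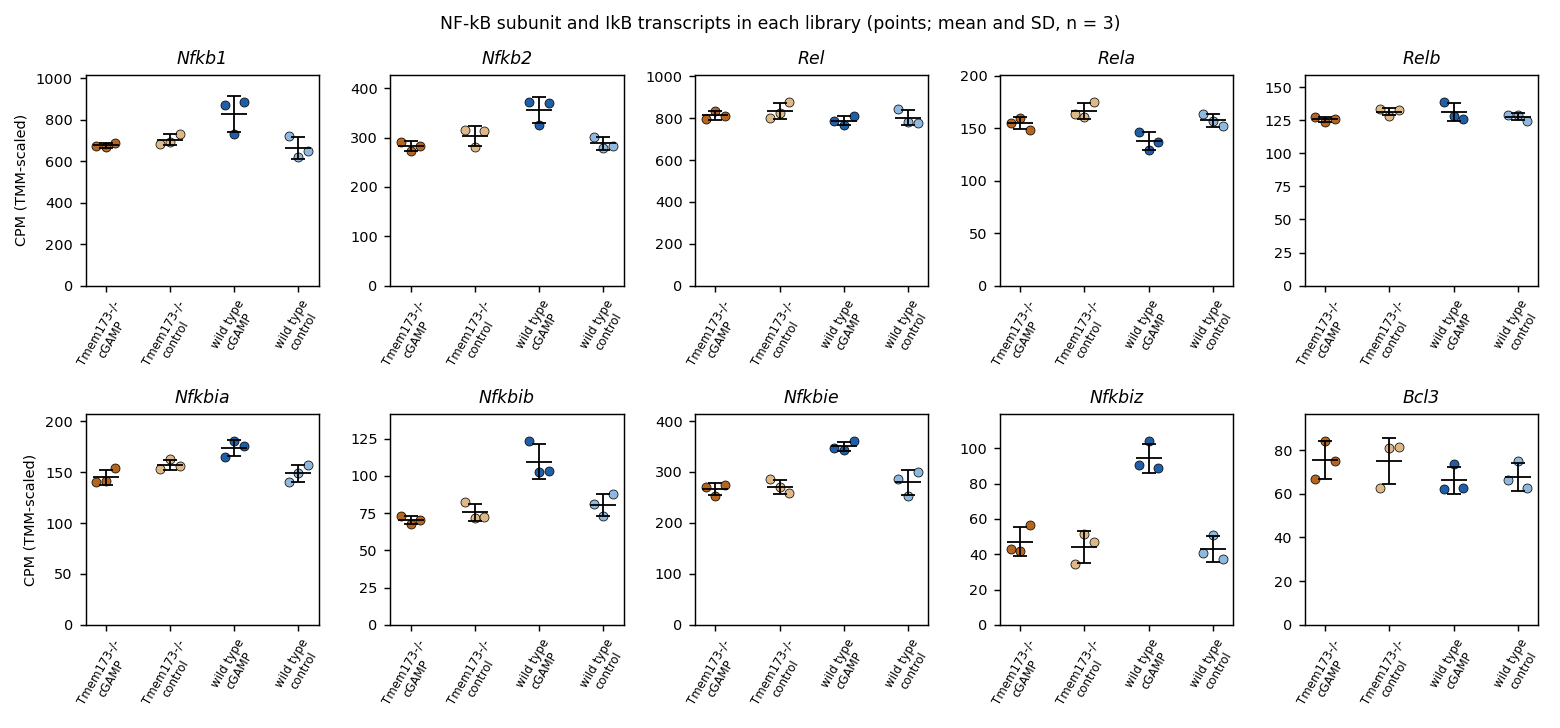
Normalised read counts (CPM scaled by TMM, linear axes from 0) of the 10 genes in the 12 libraries, with the mean and SD of each group of 3. Wild type cGAMP points stand above the other groups for Nfkbiz, Nfkbib, Nfkbie, Nfkb2 and, narrowly, Nfkbia. They stand narrowly below them for Rela. For Nfkb1, wild type cGAMP replicate 2 lies just below Tmem173-/- control replicate 3, and Rel, Relb and Bcl3 overlap.

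Among the subunits, Nfkb1 (ENSMUSG00000028163, GRCm38 chromosome 3, 135584655 to 135691547) was at 672, 667 and 689 CPM in Tmem173-/- cGAMP libraries and at 685, 694 and 732 CPM in Tmem173-/- controls. Wild type cGAMP libraries had 869, 730 and 885 CPM, against 723, 619 and 650 CPM in wild type controls. Replicate 2 of wild type cGAMP lay only just above the highest wild type control and just below Tmem173-/- control replicate 3. The log2 fold change in wild type cells was 0.32 ± 0.10 (SE, adjusted p = 0.0136), or 1.25-fold with a 95% interval of 1.08 to 1.44. The call was lost without wild type cGAMP replicate 1 (adjusted p = 0.0614) or replicate 3 (0.0723) and without wild type control replicate 2 (0.0591).

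Nfkb2 (ENSMUSG00000025225, chromosome 19, 46304737 to 46312090), the p100 gene of the noncanonical pathway, was at 292, 272 and 283 CPM in Tmem173-/- cGAMP libraries and at 316, 280 and 314 CPM in Tmem173-/- controls. The level was 372, 325 and 371 CPM with cGAMP in wild type cells and 302, 279 and 283 CPM in wild type controls. All wild type cGAMP values were above all 9 others. The wild type log2 fold change was 0.31 ± 0.08 (SE, adjusted p = 0.00689), and it passed under all 21 alternatives. The last 4 bases of Nfkb2 overlap Psd on the opposite strand, which rose by 0.90 on the log2 scale (adjusted p = 5.95e-06).

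The transactivating subunits behaved otherwise. Rela (ENSMUSG00000024927, chromosome 19, 5637483 to 5648130), the p65 of the classical dimer, was at 155, 160 and 149 CPM in Tmem173-/- cGAMP libraries, and at 164, 161 and 175 CPM in Tmem173-/- controls. Wild type cGAMP libraries had 147, 130 and 136 CPM, against 164, 157 and 152 CPM in wild type controls. The wild type cGAMP libraries were the lowest of all, and Rela fell by 0.19 ± 0.08 on the log2 scale (SE, adjusted p = 0.0444). This call is weak. It held under 6 of 21 alternatives, and was lost with library totals in place of TMM (-0.13, adjusted p = 0.234), under which the median of all genes was 0.06. It was also lost without wild type cGAMP replicate 2 (adjusted p = 0.131) or 3 (0.0991), without wild type control replicate 1 (0.122) or 2 (0.0711), and without any Tmem173-/- library other than control replicate 3 (0.0515 to 0.0756).

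Rel (ENSMUSG00000020275, chromosome 11, 23736847 to 23770970), the c-Rel of lymphocytes, was at 794, 834 and 812 CPM in Tmem173-/- cGAMP, 799, 826 and 877 CPM in Tmem173-/- control, 785, 767 and 812 CPM in wild type cGAMP and 845, 784 and 780 CPM in wild type control libraries. These ranges overlap, and the 95% interval of the wild type log2 fold change was -0.21 to 0.16. Relb (ENSMUSG00000002983, chromosome 7, 19606217 to 19629438), the partner of p52, kept within 124 to 139 CPM in all 12 libraries. Its interval was -0.11 to 0.19 in wild type cells. Changes of Rel and Relb larger than these bounds are outside the 95% intervals, and smaller ones are not excluded.

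The 3 classical inhibitors all rose in wild type cells. Nfkbib (ENSMUSG00000030595, chromosome 7, 28758251 to 28767512), encoding IkB-beta, was at 73.1, 67.7 and 70.1 CPM in Tmem173-/- cGAMP and at 82.3, 71.9 and 72.1 CPM in Tmem173-/- control libraries. The level was 123, 103 and 103 CPM with cGAMP in wild type cells and 80.8, 72.8 and 87.6 CPM in wild type controls. Replicate 1 was the high one among the wild type cGAMP libraries, and the other 2 still lay above all 9 remaining libraries. The log2 fold change was 0.45 ± 0.09 (SE, adjusted p = 0.00107), 1.36-fold with a 95% interval of 1.19 to 1.57, and it passed under all 21 alternatives. Nfkbib overlaps Sirt2 on the opposite strand over 778 bases, and Sirt2 fell by 0.58 on the log2 scale (adjusted p = 2.76e-05). Whether the counting used strand is not given in the sources used here, and the part of the overlap in the Nfkbib values was not tested.

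Nfkbie (ENSMUSG00000023947, chromosome 17, 45555703 to 45563169), encoding IkB-epsilon, was at 270, 253 and 275 CPM in Tmem173-/- cGAMP and at 285, 270 and 258 CPM in Tmem173-/- control libraries. Wild type cGAMP libraries had 347, 344 and 360 CPM, against 287, 253 and 300 CPM in wild type controls. The wild type cGAMP libraries lay close together and above all others, with a log2 fold change of 0.32 ± 0.08 (SE, adjusted p = 0.00433) that passed under all 21 alternatives. Nfkbia (ENSMUSG00000021025, chromosome 12, 55489410 to 55492647) encodes IkB-alpha, the inhibitor that is degraded and resynthesised fastest. It was at 140, 142 and 154 CPM in Tmem173-/- cGAMP, 153, 163 and 156 CPM in Tmem173-/- control, 165, 180 and 176 CPM in wild type cGAMP and 140, 149 and 157 CPM in wild type control libraries. Its log2 fold change was the smallest of the inhibitors, 0.22 ± 0.08 (SE, adjusted p = 0.0237). The call was lost without wild type cGAMP replicate 2 (adjusted p = 0.0700) or 3 (0.0732), without wild type control replicate 1 (0.109) or 2 (0.0576), without both wild type replicate 1 libraries (0.0913) and without the filter on low counts (0.104).

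The nuclear proteins parted. Nfkbiz (ENSMUSG00000035356, chromosome 16, 55811375 to 55838899), encoding IkB-zeta, was at 42.9, 41.9 and 56.6 CPM in Tmem173-/- cGAMP and at 34.2, 51.3 and 47.0 CPM in Tmem173-/- control libraries. The level was 90.4, 104 and 88.6 CPM with cGAMP in wild type cells and 40.6, 51.2 and 37.2 CPM in wild type controls. The lowest wild type cGAMP library was well above the highest of the other 9. The log2 fold change was 1.13 ± 0.16 (SE, adjusted p = 3.95e-05), 2.19-fold with a 95% interval of 1.74 to 2.77, and it ranged from 1.03 to 1.27 over the 21 alternatives and passed in each. By size of change Nfkbiz stood at percentile 86.6 of all tested genes, Nfkbib at 51.7 and the other 8 at or below 40.0.

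Bcl3 (ENSMUSG00000053175, chromosome 7, 19808462 to 19822770) was at 66.6, 84.0 and 75.1 CPM in Tmem173-/- cGAMP, 62.6, 80.9 and 81.4 CPM in Tmem173-/- control, 62.3, 73.4 and 62.7 CPM in wild type cGAMP and 66.1, 74.9 and 62.4 CPM in wild type control libraries. The groups overlap, and the wild type log2 fold change of -0.04 had a 95% interval of -0.28 to 0.21. Of the antisense genes on the other strand of Bcl3, Gm16175 and Gm16174 held 87 and 345 counts over the 12 libraries, beside 24436 for Bcl3.

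**Figure D2:**
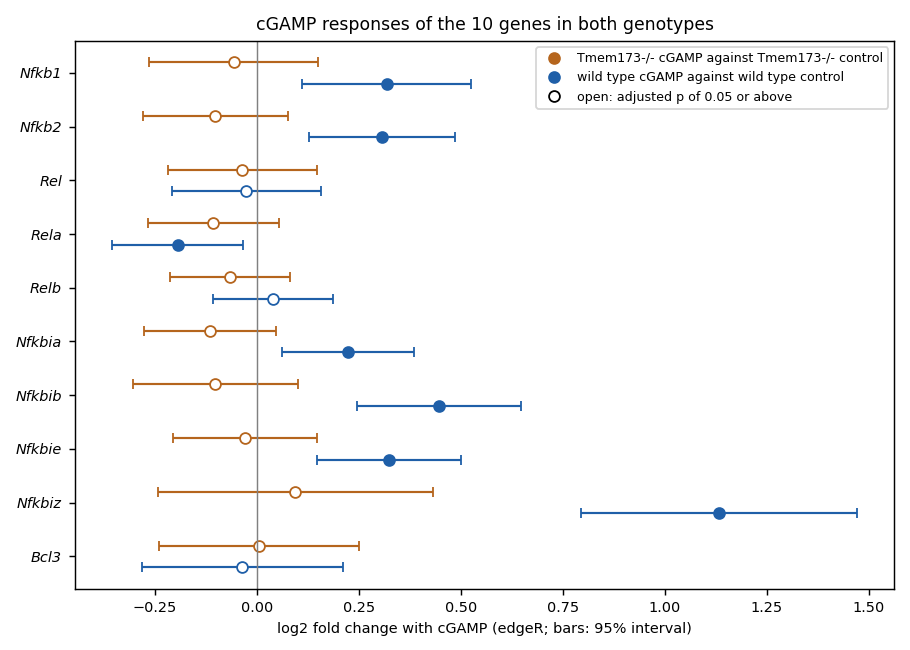
Log2 fold change of each gene with cGAMP in Tmem173-/- cells (brown, upper) and wild type cells (blue, lower), with 95% intervals from edgeR; filled points have an adjusted p under 0.05. All 10 Tmem173-/- intervals include 0, and Nfkbiz in wild type is the point farthest from 0, at 1.13.

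Tmem173-/- cGAMP libraries were set against Tmem173-/- control libraries to ask whether these genes respond to the agonist in cells of that genotype. None of the 10 genes passed, and none had an unadjusted p under 0.05. Log2 fold changes ran from -0.11 for Nfkbia to 0.09 for Nfkbiz, with a median of -0.06. The background in this comparison was 0% higher and 0% lower of all genes by edgeR, with 203 genes at an unadjusted p under 0.05, and DESeq2 and limma-voom also called 0 genes. The 95% intervals bound what could have been missed, for example -0.26 to 0.15 for Nfkb1, -0.30 to 0.10 for Nfkbib and -0.24 to 0.43 for Nfkbiz.

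The difference between the responses (Tmem173-/- response minus wild type response) was tested directly. It was negative and passed for 6 of 10 genes, against 14.1% of all genes lower and 17.5% higher in this comparison. It was -1.04 ± 0.22 for Nfkbiz (SE, adjusted p = 0.00273), -0.55 ± 0.13 for Nfkbib (0.00544), -0.41 ± 0.12 for Nfkb2 (0.0157), -0.34 ± 0.11 for Nfkbia (0.0251), -0.35 ± 0.12 for Nfkbie (0.0307) and -0.38 ± 0.14 for Nfkb1 (0.0489). Nfkbiz, Nfkbib and Nfkb2 passed under all 21 alternatives. Nfkb1, Nfkbia and Nfkbie were all lost without wild type cGAMP replicate 3, Tmem173-/- cGAMP replicate 1 or 2, or Tmem173-/- control replicate 2, each of which left 3 genes, and with both wild type replicate 1 libraries left out, which left the same 3. Leaving out any single library other than wild type cGAMP replicate 2 lost at least 1 of Nfkb1, Nfkbia and Nfkbie, with adjusted p = 0.0511 to 0.131. For Rela the difference was 0.09, with an interval of -0.14 to 0.31, so a Rela response particular to wild type cells was not shown.

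Tmem173-/- controls were compared with wild type controls, and 0 of the 10 genes passed or reached an unadjusted p under 0.05. Log2 fold changes ran from -0.09 for Nfkbib to 0.14 for Bcl3. The background was 0% higher and 0% lower by edgeR, with 921 genes at an unadjusted p under 0.05, 4 genes called by DESeq2 and 0 by limma-voom. Under cGAMP, Tmem173-/- libraries were lower than wild type libraries for 6 of 10 genes, against 23.5% of all genes lower and 24.9% higher. These log2 fold changes were -1.0 ± 0.16 for Nfkbiz (SE, adjusted p = 0.000104), -0.64 ± 0.10 for Nfkbib (3.86e-05), -0.40 ± 0.08 for Nfkbie (0.000850), -0.33 ± 0.08 for Nfkb2 (0.00363), -0.29 ± 0.10 for Nfkb1 (0.0213) and -0.26 ± 0.08 for Nfkbia (0.00995). Rela had 0.17 with an adjusted p of 0.0783. Without wild type cGAMP replicate 1 or 3, or Tmem173-/- cGAMP replicate 1 or 2, Nfkb1 was lost (adjusted p = 0.0622 to 0.10), and without Tmem173-/- cGAMP replicate 1 Nfkbia was lost (0.0506). This comparison shares its wild type cGAMP libraries with the wild type response, so the 2 are not separate evidence.

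Levels of different genes can be compared only per length, and the length used changes the order. The deposited FPKM values (counts relative to the library total and to a gene length) rest on lengths that differ from the gene length listed in the same table for 8 of the 10 genes, 2706 against 12061 bases for Nfkb1 and 767 against 2475 for Bcl3. For 8 of the 10 genes the length behind FPKM equals the mean length of the gene's transcripts in GENCODE release M21, rounded down. On deposited FPKM, wild type control levels were in the order Nfkb1 239 ± 24.1, Nfkbia 127 ± 4.59, Rel 105 ± 8.64, Nfkbie 104 ± 5.92, Nfkb2 89.5 ± 6.67, Bcl3 86.2 ± 12.1, Relb 61.4 ± 4.44, Nfkbib 60.3 ± 2.99, Rela 56.4 ± 4.70 and Nfkbiz 14.7 ± 3.12 FPKM (SD, n = 3). Rel and Nfkbie, Nfkb2 and Bcl3, Relb and Nfkbib, and Nfkbib and Rela are neighbours that differ by less than the larger of their SDs. With the listed lengths, a comparison added after seeing the data, Nfkb1 was at 53.6 ± 5.41 and Rel at 105 ± 8.64 on the same scale per kilobase, so Nfkb1 leads on the first scale and not on the second. Nfkbiz was lowest on both, at 8.37 ± 1.78 on the second.

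Within a gene the length cancels between groups, but a share of a sum over genes still depends on the lengths used. Nfkb1 made up 44.0 ± 0.557% of the summed FPKM of the 5 subunits in Tmem173-/- cGAMP, 43.7 ± 0.602% in Tmem173-/- control, 47.7 ± 1.60% in wild type cGAMP and 43.3 ± 1.24% in wild type control libraries (SD, n = 3 each). Rela made up 10.02 ± 0.420% in Tmem173-/- cGAMP, 10.3 ± 0.10% in Tmem173-/- control, 7.91 ± 0.328% in wild type cGAMP and 10.2 ± 0.319% in wild type control libraries. In wild type cGAMP libraries the Rela share was 7.53% to 8.11%, below the 10.02% to 10.61% of wild type controls, and the Nfkb1 share was 45.9% to 49.0%, above the 42.0% to 44.5% of wild type controls. With the listed lengths the shares differed in size but again had Rela lower and Nfkb1 higher with cGAMP, 13.8 ± 0.462% in wild type cGAMP and 17.01 ± 0.342% in wild type control libraries for Rela, and 18.7 ± 0.922% in wild type cGAMP and 16.1 ± 0.642% in wild type control libraries for Nfkb1. Nfkb2 also took a larger FPKM share in wild type cGAMP libraries (17.8 ± 0.0515%) than in wild type control libraries (16.3 ± 0.175%). Rel took a smaller one (16.5 ± 0.886% against 19.0 ± 0.236%), while the Relb shares overlapped. A share also falls when other members of the sum rise. Rel itself was at 108 ± 2.69 FPKM in wild type cGAMP and 105 ± 8.64 FPKM in wild type control libraries and did not pass the test.

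**Figure D3:**
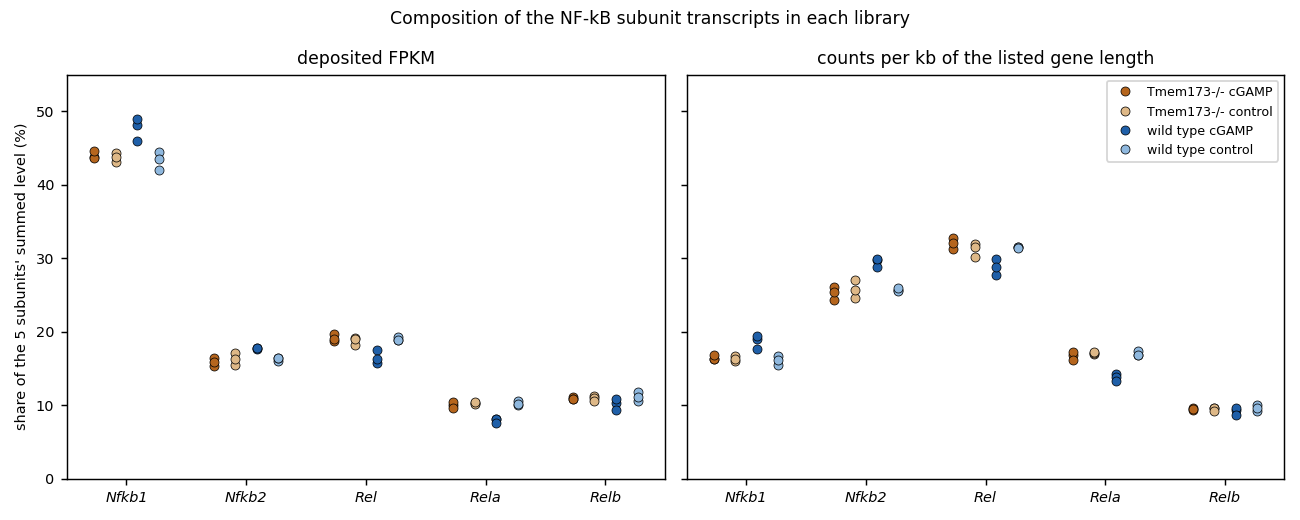
Share (%) of each subunit in the summed level of the 5 subunits, per library, on deposited FPKM (left) and on counts per kilobase of the listed gene length (right); 3 points per group. The height of Nfkb1 depends on the length used, but on both scales Rela takes a smaller and Nfkb1 and Nfkb2 a larger share in wild type cGAMP than in wild type control libraries.

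Ratios within a library need no scaling between libraries. The FPKM ratio of Nfkb1 to Rela was 4.40 ± 0.240 in Tmem173-/- cGAMP, 4.24 ± 0.0800 in Tmem173-/- control, 6.04 ± 0.432 in wild type cGAMP and 4.23 ± 0.247 in wild type control libraries (SD, n = 3 each). Its lowest wild type cGAMP value, 5.66, was above the highest value of the other groups, 4.66. That of Nfkb2 to Relb was 1.76 ± 0.132 in wild type cGAMP and 1.46 ± 0.0612 in wild type control libraries. That of Nfkbiz to Bcl3 was 0.170 ± 0.0342 in Tmem173-/- cGAMP, 0.157 ± 0.0118 in Tmem173-/- control, 0.383 ± 0.00574 in wild type cGAMP and 0.169 ± 0.0123 in wild type control libraries. The ratio of the summed classical inhibitors to the summed subunits was 0.583 ± 0.0404 in wild type cGAMP, with a range of 0.559 to 0.629, and 0.532 ± 0.0449 in wild type control libraries, with a range of 0.493 to 0.581. On this scale the ranges overlap. With the listed lengths the ratio was 0.719 to 0.794 in wild type cGAMP and 0.611 to 0.712 in wild type control libraries, which do not overlap.

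Likeness of pattern was measured as the root mean square difference of centred log2 CPM over the 12 libraries, as a description. It is not scaled by the spread of each gene. Genes that vary little therefore score as close, and a gene with a large change scores as far from most others. Among the 10 genes the closest pair was Nfkb1 and Nfkb2, at 0.057 log2 units, followed by Rel and Relb at 0.070. Among all other genes the nearest to Nfkb1 was Dnajc13, at 0.038, the nearest to Nfkb2 was Csnk2a2, at 0.046, and the nearest to Rela was Flii, at 0.032. Nfkbib was nearest to Ccz1, at 0.045, Nfkbia to Fmr1, at 0.049, and Nfkbie to Gm16286, at 0.045. Rel was nearest to Ppp6r1 (0.033), Relb to Rbm22 (0.043) and Bcl3 to Mlxip (0.060). Nfkbiz had no neighbour as close, the nearest being Chrnb2 at 0.103 with a wild type log2 fold change of 1.03.

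Other genes of the pathway were read from lists, against the 22.4% higher and 25.4% lower among all genes in wild type cells. Of 13 IkB kinases and adaptors, 3 rose, 2 fell and 8 did not pass, which is near or below this background. The smallest p values among those were for Tbk1, the kinase downstream of STING (0.51, adjusted p = 5.67e-05), Chuk, which encodes IKK-alpha (0.46, 0.000187), the adaptor Tank (-0.31, 0.00672) and Ikbkg, which encodes the scaffold NEMO (-0.30, 0.00712), each as log2 fold change of wild type cGAMP against wild type control.

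Of 14 genes of IkB degradation and linear ubiquitin, 2 rose, 2 fell and 10 did not pass, fewer in each direction than the 22.4% and 25.4% of all genes. Rnf31 (0.64, adjusted p = 6.98e-05) and Rbck1 (0.30, 0.00189), subunits of the ligase that builds linear ubiquitin chains, rose. Otulin (-0.43, 0.000347), which removes such chains, and Btrc (-0.44, 0.000860), the receptor that marks phosphorylated IkB for degradation, fell. Of 8 other regulators related to IkB, 2 rose and 3 fell, near the same background. Pdlim2, a nuclear ubiquitin ligase of p65 (-0.995, 6.84e-07), and Nkiras2 (-0.21, 0.0386) fell, while the repressor gene Nkrf (0.37, 0.00985) and Nkiras1 (0.43, 0.0357) rose, Nkiras1 and Nkiras2 encoding small proteins that bind IkB.

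Most listed targets of NF-kB rose in wild type cells. The list was chosen with earlier results of these data known, so its counts are a description only. Of 26 targets, 18 rose, 3 fell and 5 did not pass, with a median log2 fold change of 0.92 against 0.26 for the 10 family genes, in wild type cells with the background of 22.4% and 25.4% given above. The smallest p values were those of the cytokine genes Tnf (2.54, adjusted p = 5.19e-09) and Lta (3.55, 7.10e-08), of Cflar, an inhibitor of death receptor signalling (1.02, 1.35e-08), and of the adhesion molecule gene Icam1 (1.02, 5.61e-08). Of 9 receptors, ligands and signalling proteins of the noncanonical pathway, Ltbr and Tnfsf13b were too low to be tested, 4 rose, 1 fell and 2 did not pass. Tnfrsf13b, the receptor TACI (1.07, 1.18e-07), Cd40 (0.84, 1.18e-05) and Birc2 (0.32, 0.0114) rose, and the ligand gene Ltb (-0.83, 0.00178) fell. In Tmem173-/- cells 0 genes of any of these lists passed with cGAMP. The difference between the responses was lower in Tmem173-/- for 14 and higher for 3 of the 26 targets, beside 14.1% lower and 17.5% higher among all genes.

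**Figure D4:**
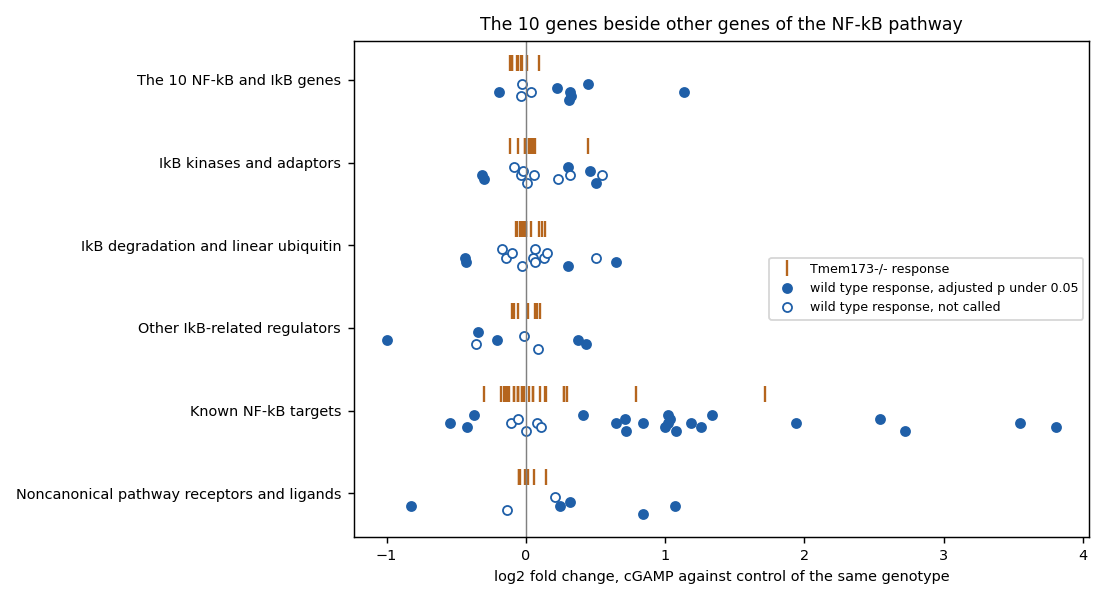
Log2 fold change with cGAMP for the 10 genes and for 5 lists of pathway genes, with Tmem173-/- responses as brown ticks above the wild type responses (blue points; filled where the adjusted p is under 0.05). In wild type cells the family genes other than Nfkbiz lie within 0.5 of 0, while known targets extend to 3.81 for Il6; the Tmem173-/- ticks cluster at 0, the largest being 1.72 for Il6, which did not pass and is named after its values were seen.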

How the data were processed

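RNA of B lymphocytes was sequenced in 12 libraries, 3 in each of 4 groups named by the labels. The authors deposited raw counts per gene, with gene coordinates, and FPKM values computed from those counts. Per the submitters' processing notes the tools were fastp, STAR and featureCounts, with builds GRCm38 and mm10; strandedness, settings and annotation are not given in the sources used here. Replicates were not pooled. With 3 mice per genotype, the 6 libraries of a genotype cannot all be different mice, so p-values measure spread between libraries that may be partly technical. Replicate libraries differed by more than sampling noise (chi-square per degree of freedom 7.50 to 47.4).

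Counts were filtered (filterByExpr), scaled by TMM and fitted with edgeR 4.0.16 in R 4.3.3 with 1 mean per group over all 12 libraries. Two-sided quasi-likelihood tests were adjusted by Benjamini-Hochberg over 14473 genes in each of 5 contrasts, with a threshold of 0.05. Standard errors are the log2 fold change over the square root of F. The procedure was tested on simulated data. Alternatives used DESeq2 1.42.0, limma 3.58.1 (voom, and trend on log2(FPKM + 1) or log2(FPKM + 0.1), which understates changes of low genes), other scalings, no filter, replicate blocks and left-out libraries. CPM logs for the likeness used a prior count of 2. All 10 genes are named; of each pathway list, the 4 called genes with the smallest wild type p and those not tested. The genes and lists were chosen with earlier results of these data known. A further pathway list is not reported here, and proteins were not analysed here.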

Additional observations from a re-analysis of the deposited data

Results flagged for a closer look

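For 6 genes the cGAMP response differed between the genotypes by a test of the difference itself (edgeR, 3 libraries per group, Tmem173-/- response minus wild type response on the log2 scale). It was -0.38 for Nfkb1, -0.41 for Nfkb2, -0.34 for Nfkbia, -0.55 for Nfkbib, -0.35 for Nfkbie and -1.04 for Nfkbiz. Same-numbered libraries need not come from 1 mouse. For Nfkbiz the same-numbered log2 ratios of cGAMP to control were 0.32, -0.29 and 0.27 in Tmem173-/- cells and 1.16, 1.02 and 1.25 in wild type cells. For Nfkbib they were -0.17, -0.09 and -0.04 in Tmem173-/- cells and 0.61, 0.49 and 0.24 in wild type cells.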

How the results depend on the processing

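Over 21 alternatives, none of the called values of the 10 genes changed direction. In wild type cGAMP against wild type control, 186 of 210 values kept their side of the threshold and 24 lost their call (Nfkb1, Nfkbia or Rela). Leaving out 1 library gave 4 to 7 genes called there and 3 to 6 in the difference between the responses. Without the filter on low counts that difference was called for 3 genes, as it was for 3 with both wild type replicate 1 libraries left out. Over all genes, the Tmem173-/- response had 23 calls without the filter. Tmem173-/- control against wild type control had 151 calls without the filter, 4 with DESeq2, 5 with both wild type replicate 1 libraries left out and 0 to 1 with 1 library left out. The cause was not tested. Same-numbered libraries correlated at 0.30, 0.22 and 0.08 in wild type and at 0.29, 0.10 and 0.17 in Tmem173-/-, each best with its own number, which is a hint from the data and not the design. The replicate number was also used as a block within each genotype. This fit called 7 genes in the wild type response, 0 in the Tmem173-/- response and 6 in the difference, as without the block. For the comparisons of genotypes a block across groups was used, which joins same-numbered libraries of different mice. That fit gave 0 genes in controls and 6 under cGAMP. A left-out library leaves 2 in its group. Each of the 10 genes had at least 1047 counts in every library, so the spread between libraries limits precision more than depth does.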
